A study of Mus musculus with 7 samples.

Results

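The 47 genes described here encode ATP-dependent chromatin remodellers of the SWI/SNF, ISWI, CHD and INO80 families, their partner subunits and a few genes that share their names. They were taken by symbol from a table of 18951 mouse genes. The symbol had to begin with Smarc, to be Arid, Chd or Ino80 followed by a digit, a letter or both (Chdh left out), or to be Srcap, Ep400, Bptf, Hells, Atrx, Brd7, Brd9 or Pbrm1. Allowing at most 1 character after the family stem would keep 37 of them. Of the 47, 21 encode a SNF2-type ATPase. A further 7, Arid3a, Arid3b, Arid3c, Arid4a, Arid4b, Arid5a and Arid5b, met the rule by name only, since they encode DNA-binding ARID proteins that are not SWI/SNF subunits. Smarca5-ps is a pseudogene.

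RNA had been sequenced from 4 Nlrp2-null and 3 wild-type (WT) pools of ovulated C57BL/6 oocytes, and both genotypes came from animals of 4 weeks. Some 150 oocytes from 3 to 4 same-genotype mice made up a pool, after collection from the oviduct and removal of cumulus cells with hyaluronidase. The labels give neither the type of Nlrp2 allele nor any further allele. NLRP2 is a maternal effect protein stored in the egg, and the study asked how its loss alters the oocyte transcriptome. The p-values below measure the spread between such pools.

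Remodellers use ATP to slide, evict, space or exchange nucleosomes. SWI/SNF complexes open chromatin, ISWI complexes space nucleosomes evenly, CHD proteins include the ATPases of the repressive NuRD complex, and the INO80 and SRCAP complexes handle the histone variant H2A.Z. A fully grown mouse oocyte is transcriptionally silent, so its mRNAs are a store laid down during growth. Maternal Smarca4 (BRG1) is known to be needed for activation of the embryonic genome in mouse.

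Between 71073973 and 96330083 reads per pool stood behind the deposited normalized counts, which are counts divided by a size factor for each pool. Nlrp2 itself had 107, 8.19, 1.96 and 63.8 normalized counts in null pools 1 to 4, against 15527, 20130 and 16792 in WT pools 1 to 3, a log2 difference of -9.70 (SE 0.851, adjusted p = 6.98e-05 by limma). All 16 oocyte markers were detected, with pool means of their log2 values between 14.47 and 14.63. All 33 cumulus and granulosa markers were in the table and none was at 0 in every pool. Their summed normalized counts ran from 133770 to 158757 in null pools and from 128317 to 153824 in WT pools. Rgs2 alone gave 74450 to 92257 of each sum. Of the 31 with a mean of at least 10, 25 had a positive log2 fold change. The mean log2 level of those 31 ran from 8.33 to 9.97 in null pools and from 8.01 to 8.96 in WT pools. Fewer cells of a type and less RNA per cell cannot be told apart in pooled RNA. Null 3, null 4 and WT 3 carry library numbers from a higher range than the other pools. Differences given below within the higher range therefore have WT 3 as their only WT pool.

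No remodeller gene changed between genotypes at an adjusted p under 0.05. All 47 reached the mean normalized count of 10 needed for testing. By limma with Benjamini-Hochberg adjustment over 15071 genes 0 of the 47 were called, where 0.0664% of all genes tested were called. edgeR on the recovered reads called 0 members (0.0464% of all genes) and DESeq2 0 (1.54%). Without adjustment, 3 members had a limma p under 0.05, Arid2, Chd2 and Srcap, all with more RNA in null pools. In all genes tested 5.28% reached that p in the same direction and 4.93% in the other, in which the count of members was 0. edgeR and DESeq2 each gave those 3 and Arid3b, 4 members, where 5.54% of all genes by edgeR and 6.35% by DESeq2 reached that p in that direction. The smallest adjusted p among members was 0.384, for Arid2.

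The members' differences were small in size. Their median log2 fold change, null minus WT, was -0.027, beside 0.0056 over all genes tested, and 23 of 47 were positive, where 50.7% of all genes were. The median absolute log2 fold change was 0.107 for members and 0.237 for all genes. Abundant genes differ less in general, and among those with a mean of at least 1000 it was 0.0752 for 35 members and 0.121 for 6358 genes. In that range 32 of the 35 members (91.4%) lay within 0.25 of 0 on the log2 scale, as did 80.0% of all genes. Members of that range were still the more abundant, with a median of 9753 normalized counts against 4367 for all genes there. Their differences were not compared at matched abundance. A log2 fold change of 0.5 or more in either direction occurred in 5 members, where 27.4% of all genes had one. Those were Smarcd3, Smarca1, Arid3c, Ino80b and Chd2, and of these only Chd2 had more than 1000 counts on average. The median SE of the log2 difference was 0.123 for members and 0.277 for all genes.

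**Figure D1:**
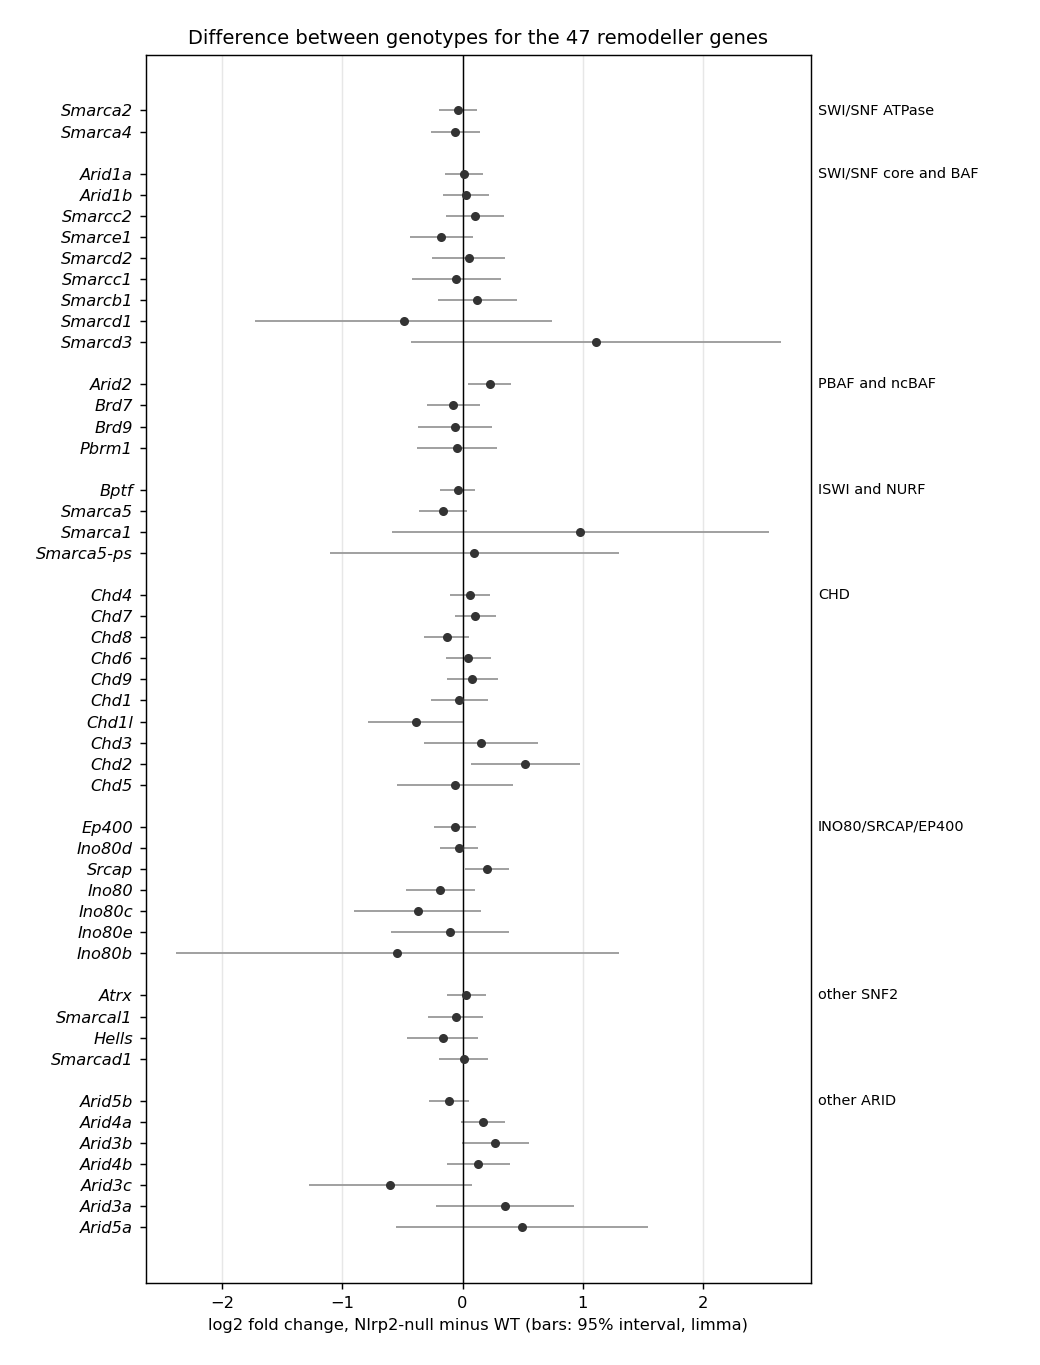
Log2 fold change, null minus WT, on the x axis for each of the 47 genes, grouped by role on the y axis; points are limma estimates and bars 95% intervals. The intervals of Arid2, Chd2 and Srcap lie wholly above 0, and the widest belong to Ino80b, Smarcd3 and Smarca1.

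Levels of different genes were compared per kilobase of exon, a rough scale, since all annotated exons of a gene count toward its length. On it 36 of the 47 lay above the median of all genes and 25 above the 75th percentile. Arid1a, the DNA-binding subunit that defines the BAF form of SWI/SNF, stood highest with 6165 ± 431 normalized counts per kb in null pools and 6099 ± 70.5 in WT pools (SD, n = 4 and 3). Atrx, which encodes a heterochromatin remodeller that deposits H3.3 with DAXX, followed with 5045 ± 350 per kb in null pools and 4932 ± 225 in WT pools. Ep400 and Bptf came next, at 4776 ± 262 and 4664 ± 61.2 per kb in null pools, and 4989 ± 481 and 4790 ± 72.4 in WT pools. The SDs of Atrx, Ep400 and Bptf overlap, so their order is not resolved. Averaged over the 7 pools Arid5a was lowest, with 12.3 ± 6.22 per kb in null pools and 8.16 ± 1.70 in WT pools. Smarcd3, at 18.4 ± 17.1 in null pools and 6.54 ± 0.769 in WT pools, Smarcd1, Ino80b and Smarca5-ps were the next lowest. The rank of Arid5a rests on an exon length of 12540 bases. Without division by length its mean of 132 normalized counts was above those of Smarcd1 (107), Smarca5-ps (104), Smarcd3 (68.1) and Ino80b (44.8).

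**Figure D2:**
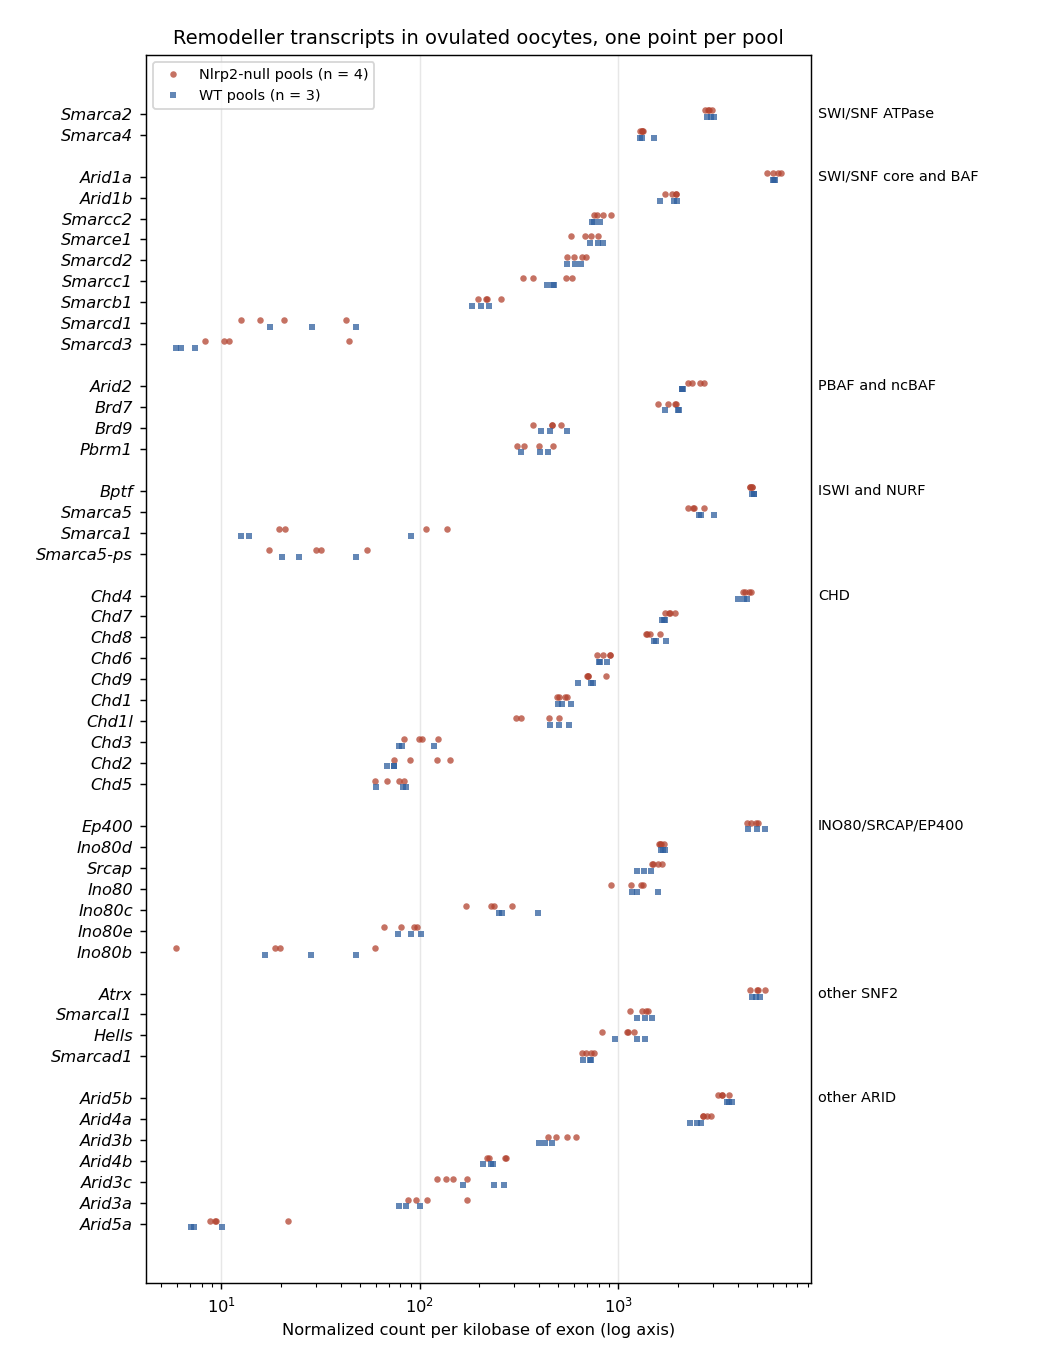
Normalized counts per kb of exon on a log axis (x) for each of the 47 genes (y), with 1 point per pool for the null and WT groups. Arid1a, Atrx, Ep400, Bptf and Chd4 stand highest, and Arid5a and Smarcd3 lie lowest.

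Of the SWI/SNF ATPases, Smarca2 was the more abundant per kb. Smarca2 (BRM) had 38947, 40449, 40913 and 42415 normalized counts in null pools, against 43153, 42067 and 39953 in WT pools. Its alternative, Smarca4 (BRG1), had 8505, 8517, 8341 and 8633 in null pools, against 8359, 8491 and 9820 in WT pools. For both genes the groups overlap, with log2 fold changes of -0.036 (SE 0.0744) for Smarca2 and -0.061 (SE 0.0963) for Smarca4. Per kb the Smarca4 to Smarca2 ratio was 0.461 ± 0.0154 in null pools and 0.471 ± 0.0617 in WT pools.

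Among the core and BAF subunits Arid1a exceeded its paralog Arid1b, per kb by 3.31 ± 0.388 times in null pools and 3.35 ± 0.381 times in WT pools. Arid1a had 73312, 64460, 69406 and 75808 normalized counts in null pools, against 70752, 70088 and 69141 in WT pools, a log2 fold change of 0.013 (SE 0.0759). Arid1b had 23582 ± 1336 in null pools and 23114 ± 2297 in WT pools. Among the Smarcd genes, whose products take the same place in the complex, Smarcd2 had 625 ± 61.6 per kb in null pools and 603 ± 50.9 in WT pools. Smarcd1 was lower per kb, at 22.9 ± 13.4 in null pools and 31.3 ± 15.1 in WT pools. On the log2 scale Smarce1, a DNA-binding subunit, differed by -0.18 (SE 0.125). Smarcc2, a scaffold subunit, differed by 0.10 (SE 0.114) and Smarcb1, the core subunit known as SNF5, by 0.12 (SE 0.156).

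Smarcd3 (chr5:24590818-24624411, minus strand, GRCm38) had 42.3, 56.3, 53.0 and 225 normalized counts in null pools, against 37.9, 30.4 and 32.1 in WT pools. Every null value exceeded every WT value, and null 4 was far above the other null pools. Its log2 fold change came to 1.11 (SE 0.726, adjusted p = 0.642 by limma) and ranged from 0.41 to 1.49 over the fits tried. Exons of Smarcd3 overlap those of Chpf2 on the opposite strand, a gene with a mean of 39.2 normalized counts. Chpf2 had 33.6, 35.8, 83.4 and 27.2 in null pools, against 46.35, 39.9 and 8.23 in WT pools. Null 4, the highest pool of Smarcd3, also had the highest mean log2 level of the cumulus markers, 9.97. The oviduct epithelium markers, of which all 6 were in the table and 5 were tested, also had their highest sum in null 4. Summed normalized counts were 425, 799, 620.0 and 2255 in null pools, against 539, 491 and 383 in WT pools. Krt8, Krt18 and Epcam were highest in null 4, at 707, 650 and 849. The other markers of the list were not, with Ovgp1 highest in null 1, at 106, Pax8 in WT 1, at 73.7, and Foxj1 in WT 2, at 6.65. The part of either marker list in the Smarcd3 value of null 4 was not tested. With the mean of the cumulus markers as a covariate the log2 fold change of Smarcd3 was 0.41.

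Smarcc1, the other scaffold paralog, split the null pools. It had 2603 and 2923 normalized counts in null 1 and null 2 and 4258 and 4575 in null 3 and null 4, against 3692, 3728 and 3443 in WT pools. The WT pools lay between the pairs of null pools, and the log2 fold change was -0.053 (SE 0.174). The log2 difference, null minus WT, was -0.43 among pools of the lower library numbers and 0.36 among those of the higher. WT 3, the WT pool of the higher numbers, differed from the other WT pools by -0.11. Smarcc1 overlaps Dhx30 on the opposite strand, which had a mean of 1623 normalized counts.

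PBAF and the smaller non-canonical BAF complex carry their own subunits, of which Arid2 had the smallest p of all 47 genes. Arid2 (chr15:96287518-96404992, plus strand) encodes the ARID subunit that takes the place of ARID1A or ARID1B in PBAF. It had 24062, 25240, 28900 and 27739 normalized counts in null pools, against 22575, 22761 and 22420 in WT pools. The 3 WT pools were nearly equal and all 4 null pools lay above them, null 3 and null 4 most. Its log2 fold change was 0.23 (SE 0.0853, 95% interval 0.045 to 0.41, adjusted p = 0.384 by limma). It was 0.12 within the lower range of library numbers and 0.34 within the higher range, and stayed between 0.13 and 0.27 in 23 fits. Those included 0.16 with the mean level of cumulus markers as a covariate and 0.13 without null 3 and null 4.

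The other PBAF genes showed no such separation. Pbrm1, the multi-bromodomain subunit, had 2725, 2982, 3540 and 4150 normalized counts in null pools, against 3897, 3583 and 2854 in WT pools, a log2 fold change of -0.047 (SE 0.158). As with Smarcc1, the difference within ranges of library numbers took both signs, -0.39 in the lower and 0.42 in the higher. Pbrm1 shares exon bases with Gnl3 on the opposite strand, which had a mean of 5609. Brd7, a PBAF bromodomain protein, had 9536 ± 876 in null pools and 10041 ± 902 in WT pools. Brd9, the bromodomain subunit of the non-canonical complex, had 3140 ± 412 in null pools and 3278 ± 506 in WT pools.

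**Figure D3:**
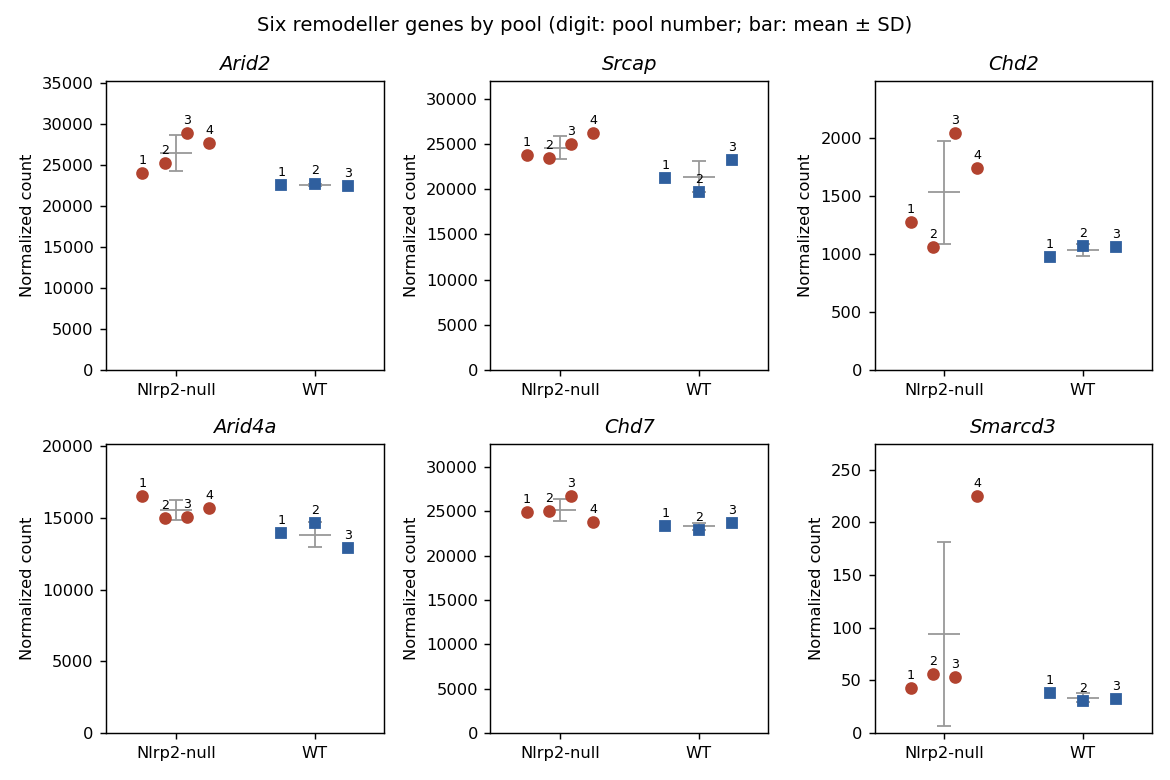
Normalized counts (y) in each pool for the 5 genes whose null pools all exceed the highest WT pool, Arid2, Srcap, Arid4a, Chd7 and Smarcd3, and for Chd2; numbers mark the pools, and bars give mean and SD. The WT pools of Arid2 are tightly grouped at 22420 to 22761, and the spread of Smarcd3 comes from null 4 at 225.

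No null pool overlapped the WT pools, and all were above them, for 5 members, Arid2, Srcap, Arid4a, Chd7 and Smarcd3, where 4.74% of all genes tested did so. The reverse held for 0 members, where 5.16% of all genes did. Arid4a, which encodes a subunit of the Sin3 deacetylase complex, had 16549, 14999, 15054 and 15687 normalized counts in null pools, against 13973, 14672 and 12904 in WT pools, a log2 fold change of 0.17 (SE 0.0877, adjusted p = 0.540 by limma). Chd7, mutated in CHARGE syndrome in humans, had 24912, 25053, 26734 and 23775 in null pools, against 23373, 22837 and 23686 in WT pools, a log2 fold change of 0.11 (SE 0.0791).

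In the ISWI family, Smarca5 (SNF2H) was the abundant ATPase and Smarca1 (SNF2L) the scarce one. Smarca5 had 21064, 18695, 18511 and 17529 normalized counts in null pools, against 20229, 23508 and 19922 in WT pools. Null 1 lay within the WT values and the other null pools lay below them. This gave a log2 fold change of -0.16 (SE 0.0930, 95% interval -0.36 to 0.035, adjusted p = 0.588 by limma). Bptf, the large NURF subunit that reads H3K4 methylation, varied least of the 47 genes across the 7 pools, its highest being 1.05 times its lowest. It had 64829, 66531, 66291 and 65044 in null pools, against 67967, 68113 and 66279 in WT pools.

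Reads of Smarca5 and its pseudogene may not be separable. Smarca5-ps on chromosome 4 has 1 exon and matches 97.0% of the 3153 coding bases of Smarca5. The longest identical run is 251 bases, and 38.2% of the 50-base windows of the pseudogene also occur in Smarca5 transcripts. The start of the coding sequence shows how close the copies are, with the 2 differing bases of this 60-base stretch in capitals. Smarca5 is read from chr8:80739037-80739096 on the minus strand and Smarca5-ps from chr4:145464298-145464357 on the plus strand, both GRCm38 with GENCODE vM21 transcripts.
Smarca5: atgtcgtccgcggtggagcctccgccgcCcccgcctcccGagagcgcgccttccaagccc
Smarca5-ps: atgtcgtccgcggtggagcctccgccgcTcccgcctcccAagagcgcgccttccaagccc
The pseudogene had 102, 96.3, 55.9 and 175 normalized counts in null pools, against 154, 78.9 and 65.0 in WT pools, and these counts are uncertain. Among the other pairs of members no pair shared more than 14 such windows.

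Smarca1 (chrX:47809368-47892974, minus strand) had 119, 128, 656 and 835 normalized counts in null pools, against 552, 77.0 and 84.0 in WT pools. It is known in mouse as the ISWI ATPase of differentiating granulosa cells. The values fell into a high set, null 3, null 4 and WT 1, and a low set of the other 4 pools, and the genotypes overlap. Its log2 fold change was 0.98 (SE 0.740, adjusted p = 0.691 by limma). Without WT 1 it was 1.90 (adjusted p = 0.351 by limma), and without null 3 and null 4 it was -0.31. Within the lower range of library numbers, which holds WT 1, it was -0.74. Within the higher range, where WT 3 is the only WT pool, it was 3.12.

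The same 3 pools had the highest levels of cumulus and granulosa markers. The mean log2 level of those markers was 8.33, 8.60, 9.17 and 9.97 in null pools, against 8.96, 8.01 and 8.17 in WT pools. Smarca1 followed this order in full, and it was the only one of the 47 whose 3 highest pools were these 3, where 6.51% of all genes tested had them. With the marker mean as a covariate the log2 fold change of Smarca1 was -0.42. The share of all genes in the full order was not computed. The part of cumulus cells in the Smarca1 values was not tested.

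**Figure D4:**
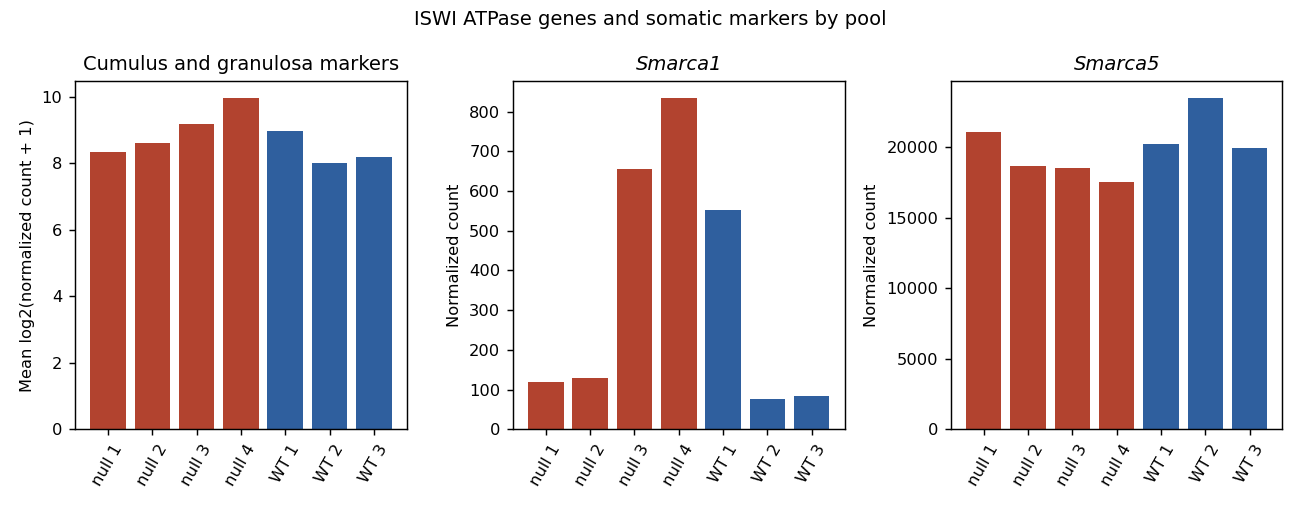
Mean log2 level of cumulus and granulosa markers (left), and normalized counts of Smarca1 (middle) and Smarca5 (right), as 1 bar per pool with null pools in red and WT pools in blue. Smarca1 reaches 552 to 835 in null 3, null 4 and WT 1, whose marker means are the highest, and stays at 77.0 to 128 elsewhere.

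CHD genes were led by Chd4, the ATPase of NuRD, with 37499, 33980, 34878 and 36480 normalized counts in null pools, against 32220, 35624 and 34667 in WT pools, a log2 fold change of 0.064 (SE 0.0778). Per kb Chd4 exceeded its paralog Chd3 in all pools, by 44.5 ± 6.82 times in null pools and 47.9 ± 11.9 times in WT pools. Chd8, linked to autism in humans, had 24147 ± 1768 in null pools and 26472 ± 2063 in WT pools. Chd6 had 16433 ± 1215 in null pools and 15860 ± 830 in WT pools, and Chd9 17208 ± 1883 in null pools and 16249 ± 1516 in WT pools. Chd1, which binds H3K4me3, had 4550 ± 246 in null pools and 4639 ± 355 in WT pools. Chd3 had 861 ± 142 in null pools and 781 ± 182 in WT pools. Chd5, the lowest per kb of the family, had 697 ± 103 in null pools and 731 ± 132 in WT pools.

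Chd2 (chr7:73426638-73541830, minus strand), a close paralog of Chd1, had 1278, 1064, 2040 and 1741 normalized counts in null pools, against 974, 1066 and 1057 in WT pools. Null 2 lay among the WT pools and the other null pools lay above them, null 3 and null 4 most. Together this was a log2 fold change of 0.52 (SE 0.213, 95% interval 0.070 to 0.97, adjusted p = 0.424 by limma). It was 0.19 within the lower range of library numbers and 0.83 within the higher, 0.35 with the cumulus covariate, and 0.18, its lowest value over 23 fits, without null 3 and null 4. A gene on the same strand, 1810026B05Rik, overlaps exons of Chd2 and had a mean of 38.9 normalized counts.

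Chd1l (ALC1), an ATPase activated by poly(ADP-ribose), had 1923, 2168, 1397 and 1322 normalized counts in null pools, against 1953, 2180 and 2449 in WT pools. Null 2 lay within the WT values, null 1 just below the lowest of them, and null 3 and null 4 further below. Its log2 fold change of -0.39 (SE 0.185, adjusted p = 0.490 by limma) was -0.015 within the lower range of library numbers and -0.85 within the higher range. Of the 47 members, 18 (38.3%) had null 3 and null 4 both above or both below null 1 and null 2, as did 6029 of the 15071 genes tested, a like share.

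The INO80 class was led per kb by Ep400, the ATPase of the TIP60 complex. Ep400 had 70630, 62430, 68706 and 65142 normalized counts in null pools, against 62865, 76303 and 69931 in WT pools, a log2 fold change of -0.060 (SE 0.0821). Srcap (chr7:127511983-127561219, plus strand) encodes the ATPase that loads H2A.Z. It had 23713, 23430, 25022 and 26175 in null pools, against 21251, 19720 and 23193 in WT pools. The lowest null pool and the highest WT pool were close, at 23430 and 23193. The log2 fold change was 0.20 (SE 0.0857, 95% interval 0.021 to 0.38, adjusted p = 0.437 by limma). It was 0.20 within the lower range of library numbers, 0.14 within the higher range and 0.15 with the cumulus covariate.

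Ino80, the ATPase that gives that complex its name, had 8016 ± 1294 normalized counts in null pools and 9089 ± 1468 in WT pools, a log2 fold change of -0.18 (SE 0.137). Among its accessory genes Ino80d was the most abundant per kb, at 1645 ± 36.8 in null pools and 1681 ± 39.8 in WT pools. Ino80c had 656 ± 141 normalized counts in null pools and 855 ± 231 in WT pools, a log2 fold change of -0.37 (SE 0.248). Ino80b was scarce, with 95.4, 29.7, 31.4 and 9.42 in null pools, against 45.3, 76.0 and 26.3 in WT pools. Of the 7 genes in the class, 6 had negative log2 fold changes, and Srcap was the exception, where 50.7% of all genes tested had positive ones. The 95% intervals of those 6 all included 0. Ep400, Ino80b and Ino80e changed sign in some of the fits tried. Exons of Ino80e overlap those of Hirip3 on the opposite strand, which had a mean of 19430 normalized counts, so its 644 ± 105 counts in null pools and 688 ± 93.4 in WT pools are uncertain.

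The remaining SNF2 genes differed little. Atrx had 109904, 108807, 119479 and 100885 normalized counts in null pools, against 112262, 107149 and 102483 in WT pools, and it is known to bind pericentric heterochromatin of mouse oocytes. Hells (LSH), needed for DNA methylation of repeats, had 7664 ± 1176 in null pools and 8604 ± 1492 in WT pools. Smarcad1 had 9452 ± 576 in null pools and 9386 ± 467 in WT pools. Smarcal1, an enzyme that re-anneals DNA at stalled replication forks, had 7527 ± 675 in null pools and 7827 ± 668 in WT pools.

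Among the ARID genes outside SWI/SNF, Arid3b had 3859, 3538, 4380 and 4868 normalized counts in null pools, against 3398, 3188 and 3688 in WT pools. Null 2 lay within the WT values and the other null pools above them. Its log2 fold change was 0.27 (SE 0.131, with adjusted p = 0.503 by limma, 0.484 by edgeR and 0.370 by DESeq2). Arid3c had 260, 216, 240 and 308 in null pools, against 469, 417 and 293 in WT pools, a log2 fold change of -0.60 (SE 0.319). Arid5b, the highest of them per kb, had 33850 ± 1759 in null pools and 36557 ± 1173 in WT pools. Arid3a had 646 ± 217 in null pools and 490 ± 59.2 in WT pools, and Arid4b 4163 ± 468 in null pools and 3787 ± 227 in WT pools. Arid5a had 117, 111, 118 and 271 in null pools, against 91.6, 88.4 and 127 in WT pools, with null 4 apart from the others.

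Ratios between genes paired as paralogs or alternative subunits were compared within each pool, which removes pool-wide scaling. Brd9 over Brd7 sets a subunit of the non-canonical complex against one of PBAF. In 9 pairs the two-sided exact permutation test over 35 splits of the pools gave 0 adjusted p-values under 0.05, and 0.0286 is the smallest p this design allows. With 9 pairs a single pair at that p would have an adjusted p of 0.257, so none could pass alone. The pair with the smallest p was Arid2 over Arid1a, the genes of a PBAF and a BAF subunit. Amounts of the complexes were not measured. Its log2 ratio per pool was -1.61, -1.35, -1.26 and -1.45 in null pools, against -1.65, -1.62 and -1.62 in WT pools. These sets do not overlap, and differ by 0.21 (exact p = 0.0571, adjusted p = 0.386). Arid2 itself had a log2 fold change of 0.23 and Arid1a of 0.013, so this ratio is not a second observation. Smarcd1 over Smarcd3 differed by -1.60 (exact p = 0.0857, adjusted p = 0.386), on low counts. Smarca5 over Smarca1 varied most between pools, from 16.5 to 240 per kb, with means of 73.1 in null pools and 152 in WT pools.

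**Figure D5:**
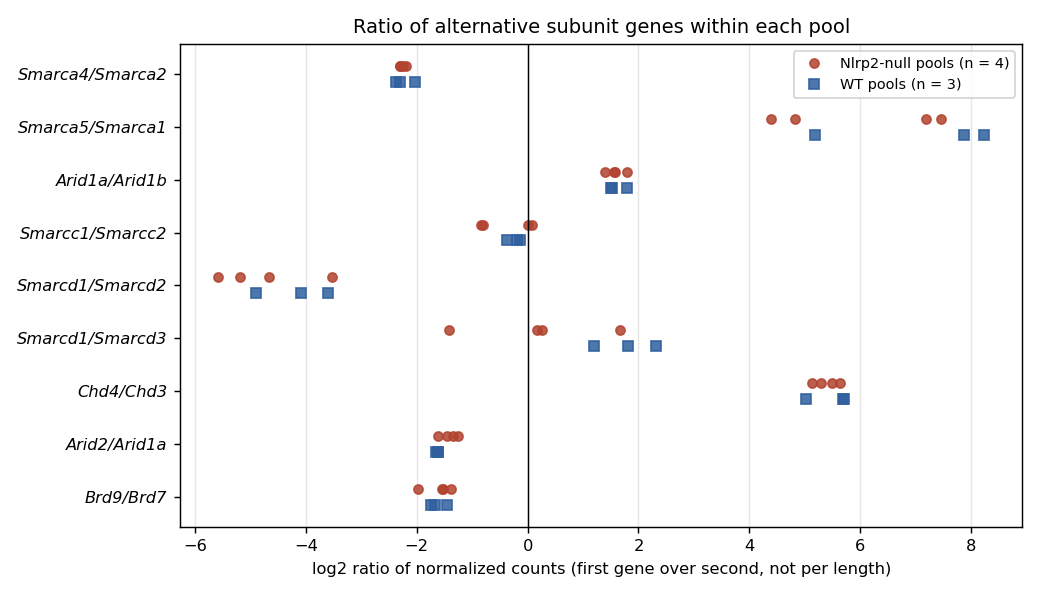
Log2 ratio of normalized counts (x), not corrected for length, for 9 pairs of genes (y) with 1 point per pool, null pools as red circles and WT pools as blue squares. The pools overlap in 8 pairs and are apart, by a small gap, for Arid2 over Arid1a.

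A further list of 74 genes in the table held subunits or partners of these complexes and other SNF2 genes such as Btaf1 and Rad54b. Of these, 73 were tested and 0 were called by limma, edgeR or DESeq2. Their median log2 fold change was -0.029, with 33 positive and 40 negative. At an unadjusted limma p under 0.05, 1 was positive and 8 were negative, where 5.28% and 4.93% of all genes were. The 4 smallest p-values belonged to Baz2b, an ISWI partner, with a log2 fold change of -0.25 (SE 0.0898), to Uchl5, an INO80-associated deubiquitinase, with -0.47 (SE 0.171), to Rbbp4, a histone chaperone, with -0.36 (SE 0.139), and to Mta3, a NuRD subunit, with -0.26 (SE 0.108). Their limma adjusted p-values lay between 0.366 and 0.437.

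Most of the members' promoters were rich in CG pairs. RefSeq (GRCm38.p6) promoter sequences were found for 36 of the 47 genes. The 250 bases before the start held a median of 21 CG pairs in these, beside 6 over all 32851 promoters of the table, and 32 of the 36 had more than 6. TATAAA occurred on either strand in 2 of the 36 (5.56%), where 12.4% of all promoters of that length hold it. CANNTG, which reads the same in both directions, occurred in 18 of the 36, where 66.2% of all promoters hold it. The promoters of 3 genes whose values stood out above, chosen after their values were seen, are shown as examples with each CG in capitals. Over the 36 the count ran from 4 to 40. Srcap (chr7:127511733-127511982, plus strand) has 11, Smarcd3 (chr5:24602003-24602252, minus strand) 38 and Smarca1 (chrX:47892614-47892863, minus strand) 6. The Srcap window ends next to the outermost GENCODE start of the gene. The RefSeq starts used for Smarcd3 and Smarca1 lie 22409 and 361 bases inside the GENCODE gene, so these windows are not upstream of the outermost start.
Srcap: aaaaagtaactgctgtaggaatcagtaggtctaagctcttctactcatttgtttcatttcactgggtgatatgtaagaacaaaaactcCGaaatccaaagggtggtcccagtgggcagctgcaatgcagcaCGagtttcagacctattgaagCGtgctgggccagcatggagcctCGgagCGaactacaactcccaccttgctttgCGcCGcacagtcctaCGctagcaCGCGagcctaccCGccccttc
Smarcd3: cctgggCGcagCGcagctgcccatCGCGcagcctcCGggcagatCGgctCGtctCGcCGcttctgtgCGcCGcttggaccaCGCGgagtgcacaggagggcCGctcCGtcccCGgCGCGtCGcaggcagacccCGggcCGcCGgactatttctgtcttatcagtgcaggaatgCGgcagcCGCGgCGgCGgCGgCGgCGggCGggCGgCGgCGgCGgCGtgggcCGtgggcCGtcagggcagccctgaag
Smarca1: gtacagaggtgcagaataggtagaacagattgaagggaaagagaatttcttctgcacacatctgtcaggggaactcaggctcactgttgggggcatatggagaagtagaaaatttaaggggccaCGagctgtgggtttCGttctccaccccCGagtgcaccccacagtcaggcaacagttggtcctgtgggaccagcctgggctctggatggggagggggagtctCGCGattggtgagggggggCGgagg
Per kb of exon Srcap had 1558 ± 80.3 normalized counts in null pools and 1355 ± 110 in WT pools, and Smarca1 had 71.0 ± 59.9 in null pools and 38.8 ± 44.5 in WT pools.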

How the data were processed

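RNA of 7 oocyte pools was extracted, amplified (NuGEN; random and oligo d(T) priming) and run on an Illumina HiSeq, per the labels' protocols. Reads after such amplification are not independent molecules. The authors deposited a signal for each gene and pool, DESeq2-type normalized counts, in which a pool's reads are scaled by its size factor, per the file headers. Within a tolerance of 0.01, 100% of values were whole multiples of the pool's step, which gives back the reads. Aligners named in the submitters' processing notes are STAR 2.5.0a and TopHat2 2.0.9, and counting and testing tools are featureCounts 1.5.0-p1, HTSeq, DESeq2 1.22.2 and DESeq, beside HOMER and the builds GRCm38 and mm10. The sources used here do not name the tool behind this table or its use of strand. Of the 47 members 21 have an exon overlapping another annotated gene, on the same strand for 7 and on the opposite strand for 16. A second deposited table, of assembled transcripts, was not used here.

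limma 3.58.1 (R 4.3.3) was fitted with a variance trend to log2(normalized count + 1), null minus WT, without covariates, over 15071 genes with a mean of at least 10, with Benjamini-Hochberg adjustment over all of them at 0.05. This log2 scale understates changes of low genes. Residual degrees of freedom were 5 and those of the prior 10.9. Replicates follow the labels, which give each sample as a pool of its own, and no 2 pools of a group agreed within sampling noise (chi-square of 37.3 or more for each degree of freedom). Exon lengths and overlaps came from GENCODE vM21 by symbol, for 47 of 47 members and 99.1% of genes tested. Length was the union of all annotated exons of a gene. Simulated data were used to test limma, edgeR, DESeq2 and the exact permutation test.

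The members and gene lists were chosen with earlier results of these data known. The rule for values in the text took every ATPase, the 4 smallest p-values in each role group, the highest and lowest level per kb in each, both genes of each pair, and 4 further subunits. Alternatives were other pseudocounts (0.5, 10), filters (none, 100), scalings, variance models and covariates, a replicate block, edgeR 4.0.16 and DESeq2 1.42.0 on recovered reads, and fits without each pool or without null 3 and null 4. DESeq2 left 2080 adjusted p-values as NA, 0 of them members.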

Additional observations from a re-analysis of the deposited data

Results flagged for a closer look

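In 3 of the 47 members 1 null pool lay far from the other null pools, judged by its gap to the nearest pool over the whole range of the group. Chance flags about 1 in 20 groups, so 3 of 47 is near what chance alone would give. The share of all genes tested that this rule flags was not computed. Smarcd3 had 225 normalized counts in null 4, where the next null pool had 56.3. Arid5a had 271 in null 4, where the next had 118. Chd9 had 20030 in null 3, where the others ran from 16182 to 16385. High values in these pools were common, as null 4 was the highest pool for 10 members and 20.0% of all genes tested. For null 3 this held for 8 members and 18.8% of all genes. Null 4 was also the pool with the highest mean log2 level of cumulus markers, 9.97. It was also the highest in the summed normalized counts of 6 oviduct epithelium markers, 425, 799, 620.0 and 2255 in null pools, against 539, 491 and 383 in WT pools. Of those markers Krt8, Krt18 and Epcam were highest in null 4, and Ovgp1, Pax8 and Foxj1 were not. The part of either list in these values was not tested. With the mean of the cumulus markers as a covariate the log2 fold change was 0.41 for Smarcd3 and 0.16 for Arid5a, where without it the values were 1.11 and 0.49. WT groups, of 3 pools, were too small for this check.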

How the results depend on the processing

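The count of members called was 0 in all 23 fits, and the smallest adjusted p of any member was 0.186, for Arid2 with DESeq2. Of the 47 members, 25 kept the sign of their log2 fold change in every fit, 13 positive and 12 negative, Arid2, Srcap and Chd2 among the positive ones, and 22 changed sign at least once. Depth limits the scarcest genes, since Ino80b rested on 9 to 88 reads per pool and Smarcd3 on 32 to 215, where counting error adds to the spread. The causes of the shifts below were not tested. In the fits that leave out a replicate, the number with unadjusted p under 0.05 ran from 1 to 5, the lowest values coming without null 3 and without null 4, the highest without null 1 and without null 2.

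The number of members with an unadjusted p under 0.05, 3 in the report, was 6 after quantile normalization and 1 without a variance trend, with pool quality weights, with the cumulus covariate (the mean of the markers) and without null 3 and null 4. The members' median log2 fold change was -0.086 with equal medians and -0.013 after quantile normalization. Over all genes tested the medians of those fits were -0.054 and -0.013, beside 0.0056 in the main fit. The members' median was -0.0083 with weights, 0.025 with the cumulus covariate, -0.0088 with edgeR and -0.012 with DESeq2. It was 0.0065 without null 3 and null 4, and -0.012 to 0.0075 without each replicate in turn. Nlrp2 kept its size but missed the adjusted threshold without a variance trend (-9.70, limma adjusted p = 0.316), in the robust fit (-9.70, 0.147) and without null 3 and null 4 (-9.11, 0.133).

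Same-numbered null and WT pools had correlations of -0.16, 0.019 and -0.012 between their deviations from the group means. With so few pools these values show no pairing by replicate number and cannot exclude it. The fit with the replicate block had to leave out null 4, which has no WT partner. It gave a median of -0.0084, Brd9 over Brd7 -0.061, Arid1a -0.021, Smarca5-ps -0.17, Chd1 0.00075 and Chd5 0.027, all of them the values without null 4 and no block. The block itself moved the members with an unadjusted p under 0.05 to 0, where leaving out null 4 alone gave 1, and the genes called over the whole table to 1, where it alone gave 4.

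Among log2 ratios, Smarca4 over Smarca2 turned to 0.12, Smarca5 over Smarca1 to 0.60 and Chd4 over Chd3 to 0.032 within the lower range of library numbers, Arid1a over Arid1b to 0.16 and Smarcc1 over Smarcc2 to 0.42 within the higher range, and Smarca4 over Smarca2 to 0.012 and Smarca5 over Smarca1 to 0.22 without null 3 and null 4. Without each replicate in turn, Brd9 over Brd7 ran from -0.061 to 0.14, Arid1a over Arid1b from -0.092 to 0.072, Chd4 over Chd3 from -0.31 to 0.026 and Smarca4 over Smarca2 from -0.092 to 0.080.

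Single members also changed sign. With equal medians, where the median over all genes tested was -0.054, Smarcd2 was -0.0085, Arid1a -0.046, Arid1b -0.027, Chd6 -0.0097, Atrx -0.028 and Smarcad1 -0.050. After quantile normalization Smarca5-ps was -0.10 and Chd1 0.0089. With weights Arid1a was -0.028 and Ino80e 0.025. With the cumulus covariate Arid1a was -0.025, Brd7 0.025, Brd9 0.031, Smarca1 -0.42, Smarca5-ps -0.28, Chd1 0.027, Chd3 -0.021, Chd5 0.10, Ino80b 0.28 and Hells 0.035. Without null 3 and null 4 Arid1a was -0.026, Brd9 0.056, Smarca1 -0.31, Chd5 0.0065, Ino80b 0.24, Ino80e 0.087, Smarcal1 0.00079 and Arid4b -0.0093. Without each replicate in turn, Arid1a ran from -0.021 to 0.057, Arid1b from -0.052 to 0.086, Atrx from -0.010 to 0.071, Brd9 from -0.16 to 0.057, Chd1 from -0.073 to 0.033, Chd5 from -0.22 to 0.027, Ep400 from -0.13 to 0.0075, Ino80e from -0.20 to 0.0081, Pbrm1 from -0.18 to 0.048, Smarca4 from -0.10 to 0.013, Smarca5-ps from -0.17 to 0.46, Smarcad1 from -0.032 to 0.044, Smarcal1 from -0.12 to 0.0057, Smarcc1 from -0.18 to 0.088 and Smarcd2 from -0.012 to 0.11.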
